A study of Mus musculus with 12 samples.

Results

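The change of the testis from 6 to 18 months of age was described across genes, in 6 of the 12 RNA sequencing libraries of a study of testis aging. The 6 libraries came from the testes of wild-type (WT) male C57BL/6 mice, an inbred laboratory strain, with no treatment named, at the ages of 6 months (6M, 3 libraries) and 18 months (18M, 3 libraries). All of these mice shared strain and sex and differed by the labelled age, and the study also holds 3 libraries at 3 months (3M) and 3 at 12 months (12M). The study treats the 3 libraries of an age as biological replicates, but whether the mice of an age were littermates, and how many mice gave each library, is not given in the sources used here. The p-values therefore measure only the spread between these libraries.

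A gene was the sum of the deposited read counts over its assembled transcript rows, where a row was kept if the comparison with the RefSeq annotation gave it class =, c, j or o, which mark a full match, a contained row, a shared splice junction and another exon overlap on the same strand. Of the 71967 rows in the table, 60321 were kept and gave 24336 genes, of which 18059 had enough reads to be tested. Values are given as CPM, read counts scaled to the normalized size of the library, and they can be compared between libraries for 1 gene but not between genes of unlike length. A gene was called when edgeR's quasi-likelihood test gave a p-value of 0.05 or less after Benjamini-Hochberg adjustment over the 18059 genes.

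The testis makes sperm in the seminiferous tubules, where spermatogonia divide, spermatocytes pass through meiosis, and round spermatids reshape into elongating spermatids whose histones give way to transition proteins and then protamines. Sertoli cells nurse the germ cells inside the tubules, peritubular myoid cells wrap them, and Leydig cells between the tubules turn cholesterol into testosterone under the control of luteinizing hormone. Germ cells make up most of the cells of an adult mouse testis, so the RNA of Leydig cells and other somatic cells is a minor part of a whole-testis library. In such bulk RNA, fewer cells of a type and less RNA per cell cannot be told apart.

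The libraries held between 50924104 and 71803379 reads over all rows, and 94.4% to 94.9% of these lay in the kept rows. Pearson correlations of log2(CPM + 1) across genes lay between 0.990 and 0.994 for every pair of the 6 libraries. The lowest was that of 6M library 3 with 18M library 3. In 6M library 3 several somatic cell genes had their highest level, such as Clu (964 CPM, against 735 to 764 in the others). Tjp1, also listed for Sertoli cells, had its lowest level there (81.8 CPM). Transcripts of elongating spermatids were at high levels in each of them, as Prm2, a protamine, lay between 5045 and 6712 CPM, so the RNA carried the markers of the labelled tissue. Of 19 markers of the epididymis, the duct beside the testis, 4 had enough reads to be tested and 4 were at 0 in the 6 libraries, and Cst8, which the testis expresses too, made up most of their summed 138 to 178 CPM. Cst8 was at 149, 148 and 132 CPM at 6M and 169, 155 and 172 CPM at 18M, with no overlap. Of 10 markers of fat tissue, 8 were tested, with a summed level of 11.3 to 13.7 CPM at 6M and 13.8 to 15.1 CPM at 18M. Most of that sum was Adipoq, the adiponectin of fat cells, at 7.52 to 9.36 CPM and 9.64 to 10.5 CPM, while Plin1, a coat protein of lipid droplets, and Lpl, the lipoprotein lipase, were lower at 18M without overlap.

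Few genes passed the test between 6M and 18M. Of 18059 genes, 6 were called (0.0332%), of which Snhg3 and Gm13483 were higher at 18M (0.0111%) and Klk1b24, Inpp5j, Cyp17a1 and Als2cr11 were lower (0.0221%). At an unadjusted p of 0.05 or less stood 2663 genes (14.7%), 1288 of them higher at 18M (7.13%) and 1375 lower (7.61%). The values of the 3 libraries at 18M lay wholly above those at 6M in 2020 genes (11.2%) and wholly below in 1828 genes (10.1%). DESeq2, the alternative test, called 383 of 22031 genes (1.74%), 185 higher (0.84%) and 198 lower (0.899%). The median log2 fold change of all genes was -0.01.

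Cyp17a1, the enzyme that turns progestins into androgen precursors in Leydig cells, lies on chromosome 19 at chr19:46667165-46673000 of the mm10 build. Its level was 128, 136 and 140.5 CPM in the 3 libraries at 6M and 67.2, 54.4 and 55.5 CPM in those at 18M. The groups did not overlap, and the lowest library at 6M stood well above the highest at 18M. Cyp17a1 fell by 1.19 on the log2 scale (SE 0.09), with an adjusted p of 0.0092. With 18M library 3 left out, its adjusted p was 0.0522. At the ages outside the comparison its mean was 159 CPM at 3M and 85.4 CPM at 12M, so the means of the 4 ages descended in the order of age.

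Klk1b24, a serine protease of the tissue kallikrein cluster, lies at chr7:44188236-44192451. It was at 8.45, 10.9 and 9.73 CPM at 6M and at 2.07, 2.03 and 1.62 CPM at 18M. Every library at 18M was far below every library at 6M. Klk1b24 fell by 2.35 on the log2 scale (SE 0.15), with an adjusted p of 0.0056, and it remained called with each of the 6 libraries left out in turn. Its mean was 16.2 CPM at 3M and 3.51 CPM at 12M.

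Gm13483, a noncoding gene of the RefSeq annotation at chr2:50296810-50433967, rose by 1.09 on the log2 scale (SE 0.09), with an adjusted p of 0.0146. Its level was 5.11, 4.60 and 5.34 CPM at 6M and 10.8, 10.4 and 10.8 CPM at 18M. The 3 libraries of each age lay close together and the ages did not overlap. The adjusted p was 0.0564 without 18M library 2, 0.0732 without 18M library 3 and 0.138 with all 12 libraries in the fit. The reads lay on different rows at the 2 ages, since row NR_040362 held 117, 107 and 95 reads at 6M and 1, 4 and 1 at 18M, while row MSTRG.11357.1, which has an unannotated splice pattern, held 126, 114 and 196 reads at 6M and 576, 514 and 723 at 18M. With the fully matching rows alone, the log2 fold change of Gm13483 was -5.12, so the rise is that of the whole gene and not of its annotated transcripts.

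**Figure D1:**
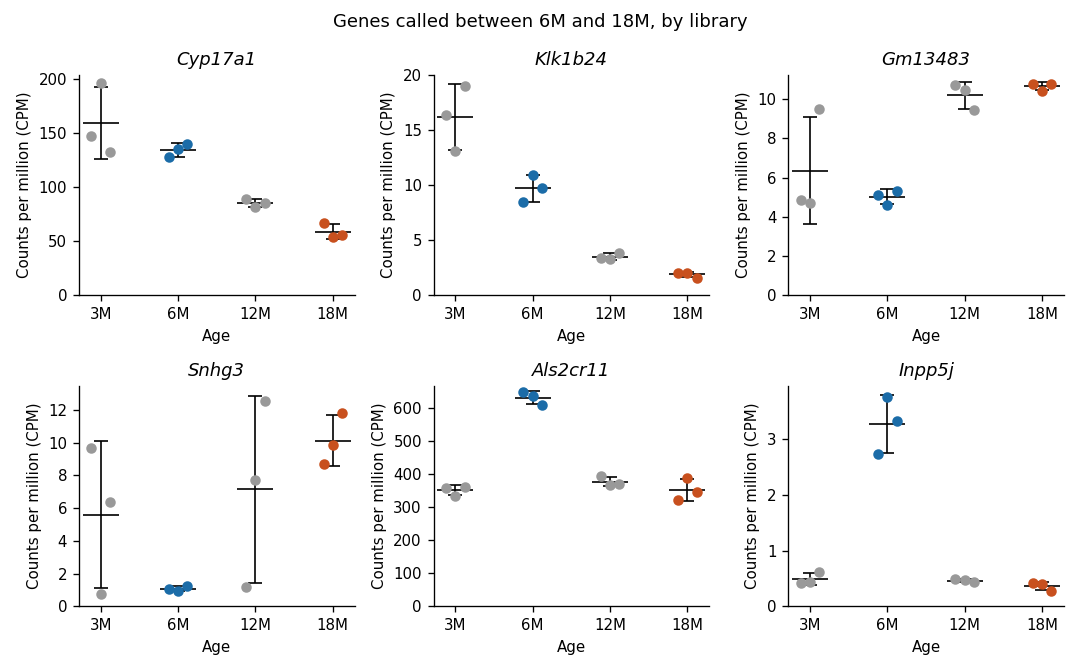
Level in CPM (vertical axis, from 0) of the 6 genes called between 6M and 18M, in each of the 12 libraries by age (horizontal axis). Points are libraries, with 6M in blue, 18M in orange and the ages outside the comparison in grey, and bars give the mean and SD of 3 libraries. Cyp17a1 and Klk1b24 descended over all 4 ages, Als2cr11 and Inpp5j were high at 6M alone, and Snhg3 was low in 1 library at 3M and 1 at 12M as well as at 6M.

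The other 3 called genes share their place in the genome with other rows, and the sum over the place was not called. When the reads of every row of an assembled locus were summed, a check chosen after these genes had been seen, the locus of Snhg3 and Rcc1 differed by 0.03 on the log2 scale (SE 0.04, adjusted p = 0.764), that of Als2cr11 by -0.06 (SE 0.04, adjusted p = 0.55) and that of Inpp5j by 0.10 (SE 0.15, adjusted p = 0.799). For Als2cr11 and Inpp5j, whose rows held much of their locus, the called differences came with reads divided differently among overlapping rows and a locus total that was not called. Snhg3 held 0.381% to 0.514% of the reads of its locus at 6M and 3.48% to 4.47% at 18M, so the sum over that locus says little about Snhg3 itself, and whether its level differed was not settled by it. The loci of Cyp17a1 (-1.21, adjusted p = 0.00901), Gm13483 (1.07, adjusted p = 0.0175) and Klk1b24 together with rows of Klk1b3 (-1.20, adjusted p = 0.0433) kept their calls, among 16 called of 23992 loci (0.0667%).

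Snhg3, a host gene of small nucleolar RNAs at chr4:132351933-132353686, had 51, 46 and 67 reads at 6M and 466, 492 and 796 at 18M, a rise of 3.22 on the log2 scale (SE 0.16, adjusted p = 0.0023, or 0.257 with all 12 libraries in the fit). Row MSTRG.14608.2 of Rcc1, the exchange factor of the small GTPase Ran, has the same highest genome coordinate as Snhg3. It held 6712, 6225 and 6931 reads at 6M against 476, 3 and 5 at 18M. The row of Rcc1 was high where Snhg3 was low, and the same held outside the comparison. In 3M library 2 and 12M library 1 the row of Rcc1 held 7227 and 6678 reads and Snhg3 41 and 65, while in the other libraries of these ages it held 5 to 7 reads and Snhg3 349 to 735. Rcc1 itself, summed over its rows, was at 238 to 250.01 CPM at 6M and 239.5 to 252 CPM at 18M.

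Als2cr11, whose annotated transcript lies at chr1:59050506-59094900, had 647, 634 and 609 CPM at 6M and 321, 389 and 344 CPM at 18M, a fall of 0.84 on the log2 scale (SE 0.07, adjusted p = 0.0149). Its summed rows held 88.8% to 89.8% of the reads of the locus at 6M and 49.0% to 54.2% at 18M, the rest lying on rows with no gene assigned (class u). The whole locus stood at 657 to 688 CPM at 6M and 622 to 674 CPM at 18M, and these ranges overlapped. At 3M and 12M its rows held 48.7% to 56.1% of the locus, close to the share at 18M, so the high values belonged to 6M alone. The call was lost without 18M library 3 (adjusted p = 0.0851) and without 6M library 2 (adjusted p = 0.0518).

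Inpp5j, an inositol polyphosphate 5-phosphatase at chr11:3494272-3504821, was at 2.74, 3.77 and 3.32 CPM at 6M and 0.410, 0.402 and 0.282 CPM at 18M, a fall of 3.18 on the log2 scale (SE 0.22, adjusted p = 0.0075). Row MSTRG.2423.3, which counts toward the gene, held 99, 142 and 117 reads at 6M and 0 in each of the other 9 libraries. Row MSTRG.2423.1, a single-exon row of class e over the same place that does not count toward the gene, held 15, 25 and 5 reads at 6M and 146 to 274 in the others. The reads thus lay on one row or the other, at a total of 2.89 to 4.08 CPM at 6M and 3.36 to 4.08 CPM at 18M.

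**Figure D2:**
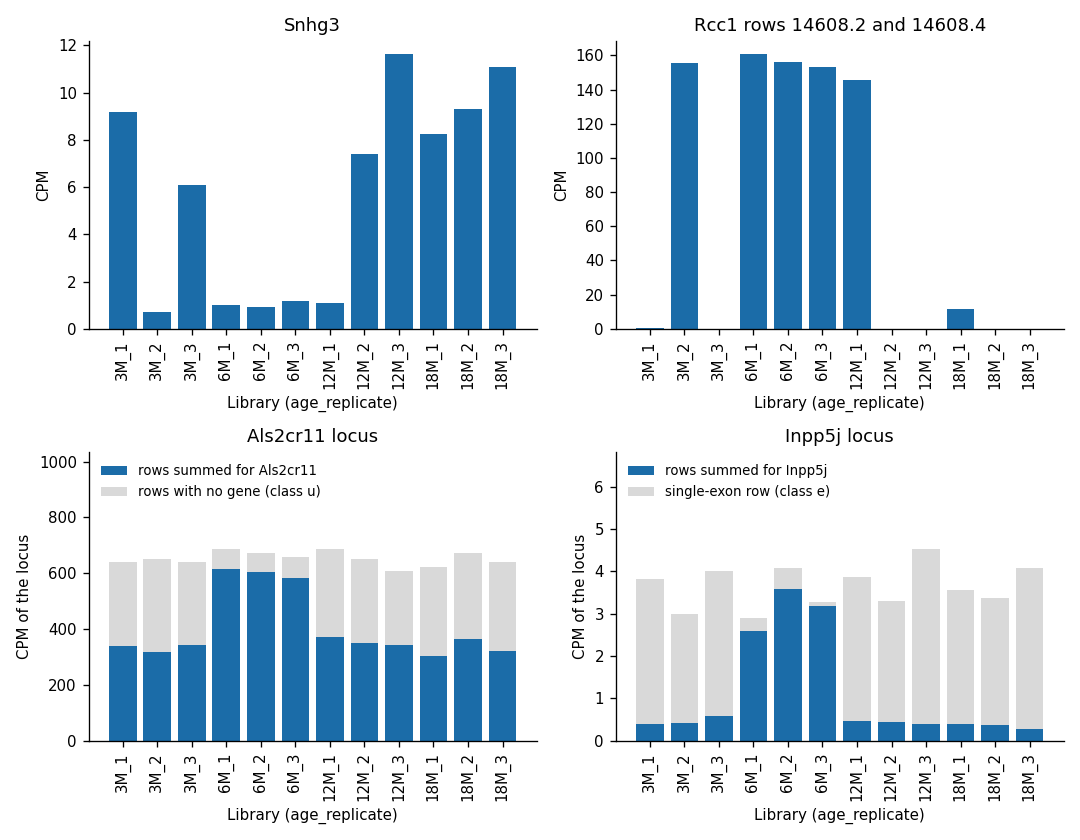
Level in CPM, scaled to the reads of all rows (vertical axes, from 0), in the 12 libraries (horizontal axes, age and replicate number). The upper panels show the Snhg3 row and 2 Rcc1 rows with the same highest genome coordinate. The lower panels show the loci of Als2cr11 and Inpp5j with the rows summed for the gene in blue and the other rows in grey. Snhg3 is low in the 5 libraries where these Rcc1 rows are high, and the full bars of the lower loci change little with age while their blue parts do.

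Beyond Cyp17a1, the listed genes of Leydig cell steroid synthesis, which include the aromatase Cyp19a1, were mostly lower at 18M. Of 15 listed genes 14 were tested, 7 of them were lower at an unadjusted p of 0.05 or less and none was higher, against 7.61% and 7.13% of all genes. Their median log2 fold change was -0.28. Of the 14, 8 had no overlap in the lower direction and 1 in the higher, against 10.1% and 11.2% of all genes. Cyp17a1 was the 1 member called by edgeR, which called 0.0221% of all genes lower. DESeq2 called 5 of the 14, Cyp17a1, Cyp11a1, Star, Hsd3b6 and Hsd17b3, all lower, against 0.899% of the genes it tested. Several Leydig cell genes, like other somatic cell genes, had their highest level in 6M library 3. Without that library, 6 of the 14 were lower at that p and the median was -0.21.

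Star carries cholesterol into mitochondria, where Cyp11a1 cuts its side chain in the first step of steroid synthesis. Star was at 42.1, 32.2 and 50.5 CPM at 6M and at 23.1, 20.0 and 25.4 CPM at 18M, a log2 fold change of -0.87 (SE 0.16, adjusted p = 0.23). Cyp11a1 was at 63.5, 68.2 and 54.8 CPM at 6M and at 35.0, 21.4 and 17.5 CPM at 18M, a log2 fold change of -1.34 (SE 0.24, adjusted p = 0.22). Neither passed the adjusted threshold of edgeR, although in both the 2 ages did not overlap.

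Hsd3b6, the 3-beta-hydroxysteroid dehydrogenase of adult Leydig cells, was at 62.0, 81.1 and 101 CPM at 6M and at 52.6, 38.1 and 38.0 CPM at 18M (log2 fold change -0.92, SE 0.20, adjusted p = 0.23). Hsd17b3, which makes testosterone from androstenedione, was at 13.9, 15.0 and 18.4 CPM at 6M and at 11.7, 9.64 and 6.61 CPM at 18M (log2 fold change -0.76, SE 0.21, adjusted p = 0.248). The ages did not overlap in either gene. The electron donors Por (-0.26) and Fdxr (-0.30) had smaller differences, and Scarb1, which takes up cholesterol esters, Hsd3b1, Tspo, Srd5a1 and Fdx1 lay between -0.17 and 0.12. Cyp19a1, the aromatase that turns androgens into estrogens and that germ cells express too, had a log2 fold change of 0.19.

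The identity and hormone genes of Leydig cells stood likewise. Of 14 tested members, 7 were lower at an unadjusted p of 0.05 or less and none higher (all genes 7.61% and 7.13%). None of the 14 was called by edgeR, and their median was -0.36. DESeq2 called 5 of the 14, Lhcgr, Prlr, Ces1d, Vcam1 and Fabp3, all lower, against 0.899% of the genes it tested. Lhcgr, the receptor of luteinizing hormone, was at 2.74, 3.02 and 3.76 CPM at 6M and 1.25, 1.27 and 1.16 CPM at 18M. Its values at 18M were close to each other and far below those at 6M, with a log2 fold change of -1.38 (SE 0.16, adjusted p = 0.0968). Prlr, the prolactin receptor, was at 17.4, 17.1 and 15.7 CPM at 6M and 11.6, 10.6 and 8.26 CPM at 18M, with a log2 fold change of -0.72. Ces1d, a carboxylesterase, had -1.02 and Vcam1, an adhesion protein, had -0.55, while Gata4 (-0.11) and Nr4a1 (0.06), both transcription factors, differed little.

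Insl3, the peptide hormone of Leydig cells, was at 516, 586 and 977 CPM at 6M and at 567, 455 and 420.45 CPM at 18M, so that 1 library at 6M stood apart and the ages overlapped. Its log2 fold change was -0.53 (SE 0.24, adjusted p = 0.352), and without 6M library 3 it was -0.20. The summed level of the 15 identity and hormone genes was 1157 to 1843 CPM at 6M and 937 to 1183 CPM at 18M, which overlapped, while that of the 15 synthesis genes was 545 to 650 CPM at 6M and 362 to 452 CPM at 18M, which did not.

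The libraries at 3M and 12M shared none with this comparison, and the medians of both Leydig cell lists were below 0 there too. Between 3M and 12M, 3 of the 14 synthesis genes and 6 of the 14 identity genes were lower at an unadjusted p of 0.05 or less, where 3.97% of all genes were lower and 4.2% higher, with medians of -0.18 and -0.16. None of the synthesis genes was higher at that p, but 2 of the identity genes were, Nr4a1 (0.15) and Gstm1, a glutathione transferase (0.15), of which Gstm1 had -0.37 between 6M and 18M. Cyp11a1 had a log2 fold change of -1.04 and Cyp17a1 of -0.90 between 3M and 12M, against -1.34 and -1.19 between 6M and 18M.

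**Figure D3:**
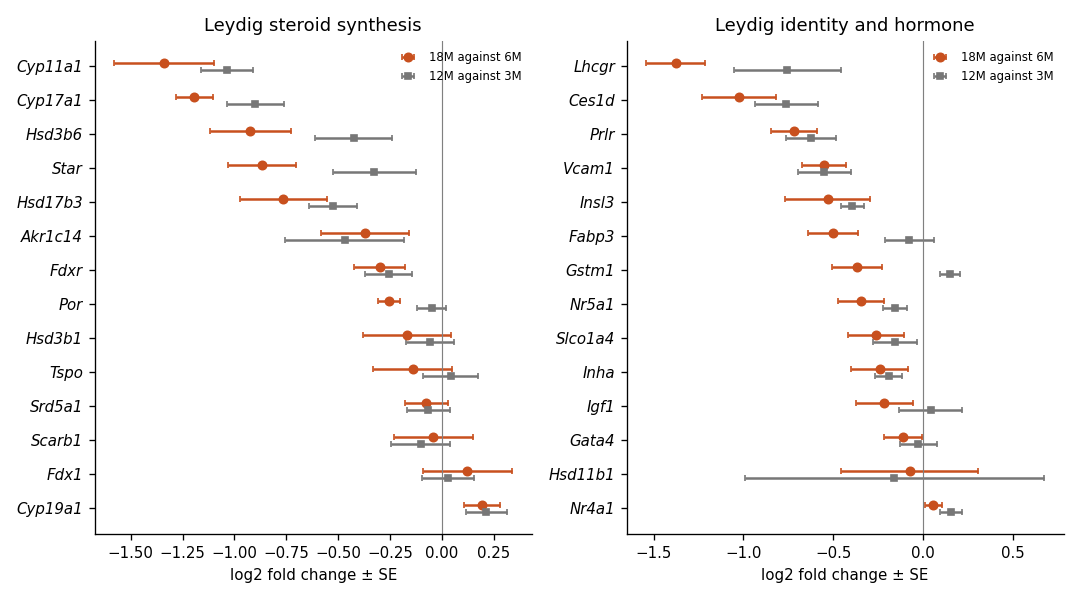
Log2 fold change with its SE (horizontal axis) of the tested genes of Leydig cell steroid synthesis (left) and of Leydig cell identity and hormones (right), between 6M and 18M (orange circles) and between 3M and 12M (grey squares). Values left of 0 are lower at the older age. Of the 14 synthesis genes 12 lie below 0 between 6M and 18M, with Cyp11a1 and Cyp17a1 farthest, and of the 14 identity genes 13 lie below 0, with Lhcgr farthest.

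Cholesterol, the substrate of these enzymes, is made in the cell or taken up from lipoproteins. Of 21 genes of its synthesis and uptake, 4 were lower at an unadjusted p of 0.05 or less and none higher. The shares of all genes were 7.61% and 7.13%, and the median of the list was -0.15. Hmgcs1, an early enzyme of that synthesis, was at 67.4 to 73.1 CPM at 6M and 66.3 to 72.9 CPM at 18M.

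Klk1b24 belongs to a cluster of tissue kallikreins on chromosome 7, of which 12 of 14 listed genes were tested. The cluster moved in both directions, with 5 members lower and 3 higher at 18M at an unadjusted p of 0.05 or less (all genes 7.61% and 7.13%). Its median was 0.12. With fully matching rows alone the median was -0.49, over 10 of the members. Over the assembled loci it was -0.55, but there the shared locus of Klk1b24 and Klk1b3 was counted for each of them. That value is therefore not a median of separate loci. The 5 lower members were 5 in each fit with 1 library left out, while the higher ones were 1 without 18M library 3 and 2 without any other, 1 with transcript length in the fit and 0 with fully matching rows alone. DESeq2 called 6 of the 12, against 1.74% of the genes it tested, with Klk1b24, Klk1b27, Klk1b21, Klk1b22 and Klk1b16 lower and Klk1b9 higher. Klk1b21 was at 8.80, 12.6 and 10.9 CPM at 6M and 2.87, 2.03 and 1.10 CPM at 18M, a log2 fold change of -2.44 (SE 0.32, adjusted p = 0.114). Klk1b27 was at 4.69, 8.36 and 4.62 CPM at 6M and 1.27, 0.824 and 0.728 CPM at 18M, a log2 fold change of -2.65 (SE 0.32, adjusted p = 0.0968). In both genes every library at 18M was below every library at 6M, as in Klk1b24, and the values at 3M (means of 20.5 and 12.3 CPM) were above those at 6M. Between 3M and 12M, 5 members of the cluster were lower and 0 higher at an unadjusted p of 0.05 or less. The shares of all genes there were 3.97% and 4.2%, and the median of the cluster was -0.62.

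Klk1b22, an epidermal growth factor binding kallikrein, had 1.22, 2.06 and 1.43 CPM at 6M and 0.130, 0.281 and 0 CPM at 18M, and Klk1b16 had a log2 fold change of -1.18. Summed over their rows, other members did not share this pattern. The paper, however, lists the annotated transcript of Klk1b8 as decreased, with a lower average FPKM at 18M than at 6M. Klk1b8 was at 41.8 to 52.6 CPM at 6M and 43.2 to 57.0 CPM at 18M, Klk1b26 at 8.79 to 9.63 CPM and 9.76 to 10.1 CPM, and Klk1b9 at 9.03 to 10.7 CPM and 13.0 to 13.1 CPM, with log2 fold changes of 0.12, 0.12 and 0.38. Klk1b5 had 0 to 0.415 CPM at 6M and 0.522 to 1.396 CPM at 18M, low levels that did not overlap. Klk1b3, which shares the locus of Klk1b24, was at 2.08 to 3.18 CPM at 6M and 3.43 to 3.60 CPM at 18M, with no overlap.

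The kallikreins are close copies of each other, so reads may have been split between them. Over the longest protein-coding transcript of each gene in GENCODE vM21, Klk1b21 shared 94.1% and Klk1b27 93.3% of aligned bases with Klk1b24, Klk1b22 shared 88.4%, and Klk1b8 and Klk1b26 shared 85.9% and 87.7%. Beyond the gene bodies, the 250 bases before the RefSeq start of the 3 genes are shown because the 3 genes were lower together, in lower case with the letters TTTAAA in capitals, taken from the plus strand of RefSeq's GRCm38.p6, at chr7:44187986-44188235 for Klk1b24, chr7:44052040-44052289 for Klk1b27 and chr7:44102042-44102291 for Klk1b21.
Klk1b24: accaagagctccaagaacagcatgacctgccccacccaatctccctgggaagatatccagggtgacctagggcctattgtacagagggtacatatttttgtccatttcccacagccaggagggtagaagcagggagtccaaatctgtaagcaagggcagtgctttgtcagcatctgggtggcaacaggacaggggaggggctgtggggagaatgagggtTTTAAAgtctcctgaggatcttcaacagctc
Klk1b27: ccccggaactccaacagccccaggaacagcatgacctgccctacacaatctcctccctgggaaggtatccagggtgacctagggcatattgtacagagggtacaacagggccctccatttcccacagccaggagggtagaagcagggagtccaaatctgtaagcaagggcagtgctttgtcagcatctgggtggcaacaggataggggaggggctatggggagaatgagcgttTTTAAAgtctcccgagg
Klk1b21: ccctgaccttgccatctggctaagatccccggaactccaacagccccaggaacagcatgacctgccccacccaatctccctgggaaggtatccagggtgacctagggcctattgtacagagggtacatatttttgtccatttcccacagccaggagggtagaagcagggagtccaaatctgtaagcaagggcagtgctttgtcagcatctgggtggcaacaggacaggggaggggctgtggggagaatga
The sequence of Klk1b21 was identical to that of Klk1b24 at 97.7% of 215 aligned bases and to that of Klk1b27 at 94.6% of 224, and the other pair at 91.9% of 236. TTTAAA, which reads the same on both strands, begins 31 bases before the start in Klk1b24 and 17 bases before it in Klk1b27. These letters are not in the window of Klk1b21. That window ends with bases that come just before TTTAAA in Klk1b24 and Klk1b27, so the matching place lies outside it. The windows therefore do not show whether Klk1b21 has these letters there. The same letters occur in the windows of 3967 of 32851 RefSeq genes (12.1%).

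By the naming rule, further genes with the lowest p-values were taken in each direction, none of which was called. Among those higher at 18M, Hoxd10, a homeobox transcription factor, was at 1.29, 0.957 and 1.303 CPM at 6M and 3.52, 2.85 and 3.62 CPM at 18M (log2 fold change 1.49, SE 0.18, adjusted p = 0.0968). Svopl, a transporter-like protein, was at 0.519, 0.458 and 0.312 CPM at 6M and 2.07, 2.01 and 1.74 CPM at 18M (log2 fold change 2.17, SE 0.23, adjusted p = 0.0637), and its assembled locus was called (2.16, adjusted p = 0.0433). Both were low at 3M and higher at 12M, with means of 1.05 and 3.06 CPM for Hoxd10 and 0.247 and 1.25 CPM for Svopl.

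Akr1c12, an aldo-keto reductase, was at 1.67 to 1.96 CPM at 6M and 3.15 to 3.43 CPM at 18M, a log2 fold change of 0.88. Gm13363, a noncoding gene that shares its locus with Ptp4a1, was at 43.9, 56.1 and 44.7 CPM at 6M and 82.7, 91.5 and 101 CPM at 18M, but the locus differed by 0.21 (adjusted p = 0.561). The other 6 lay between 0.22 and 0.56 on the log2 scale, and with transcript length in the fit between 0.13 and 0.45, with Uqcc2 at 0.16 in place of 0.32, Nupr1l at 0.16 in place of 0.29 and Dbil5 at 0.13 in place of 0.27. They were Uqcc2, an assembly factor of respiratory complex III, Rpl13a, a ribosomal protein, Dbil5, an acyl-CoA binding protein of spermatids, Stard10, a lipid transfer protein, Nupr1l and 2900092C05Rik.

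Among those lower at 18M, Fads2, the delta-6 fatty acid desaturase, was at 92.6, 90.1 and 93.0 CPM at 6M and 69.2, 63.5 and 58.4 CPM at 18M (log2 fold change -0.53, SE 0.07, adjusted p = 0.106). Ass1, argininosuccinate synthase, was at 27.5, 31.8 and 28.6 CPM at 6M and 16.2, 11.3 and 10.5 CPM at 18M (log2 fold change -1.21, SE 0.16, adjusted p = 0.115), and its value is uncertain because it shares its locus with the near-identical copy Gm5424. In both genes the ages did not overlap and the mean at 12M, 69.9 CPM for Fads2 and 19.9 CPM for Ass1, was below that at 3M.

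Asah1, the acid ceramidase, had a log2 fold change of -0.46, Dph3, a factor of diphthamide synthesis, had -0.55 and Pias1, a SUMO ligase, had -0.26. Pias1 was at 221 to 227 CPM at 6M and 185 to 189 CPM at 18M, but its means at 3M (199 CPM) and 12M (235 CPM) stood in the opposite order. The uncalled genes with the most reads were Prm2, Odf2, a protein of the sperm tail's outer dense fibers, and Akap12, a scaffold of protein kinase A, with log2 fold changes of 0.22, 0.05 and -0.04.

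Across germ cells, genes of spermatids were slightly higher at 18M. All 23 listed genes of elongating spermatids had log2 fold changes above 0, from 0.04 to 0.43, with a median of 0.13. Of the 23, 15 were higher at an unadjusted p of 0.05 or less, against 7.13% of all genes. With all 12 libraries in the fit, 6 were higher at that p. None was called by edgeR. DESeq2 called 4 (Txndc8, Hils1, Spem1 and Tnp1), against 0.84% of the genes it tested that were called higher. With 1 library left out, 7 (without 6M library 1) to 16 of the 23 were at that p, and 8 without 6M library 3, 18M library 2 or 18M library 3. Tnp1, a transition protein, was at 1679.5, 1723 and 1415 CPM at 6M and 1968, 1818 and 2124 CPM at 18M, and Prm1, a protamine, at 2475, 2610 and 2276 CPM and 2555, 2893 and 3114 CPM. Tnp1 did not overlap between the ages, whereas Prm1 and Prm2 did. Txndc8, a thioredoxin of the spermatid, had the largest difference in the list, with 58.9 to 69.2 CPM at 6M and 79.7 to 90.9 CPM at 18M.

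Of 22 genes of round spermatids, 10 were higher at an unadjusted p of 0.05 or less and none lower (all genes 7.13% and 7.61%). Their median was 0.09, and with all 12 libraries in the fit 2 of the 22 were higher at that p. Without 6M library 2 or 18M library 2, 3 of the 22 were higher at that p, and 4 without 18M library 3, and 2 were lower without 6M library 3. Spaca3, a protein of the acrosome and the 1 member called by DESeq2, was at 105 to 115 CPM at 6M and 126 to 129 CPM at 18M, and Acrv1, another, at 214 to 226 CPM and 232 to 246 CPM. The differences were small beside those of the Leydig cell genes. Of 27 genes of meiosis, 5 were higher and 1 lower at that p (all genes 7.13% and 7.61%), at a median of 0.02. In this list 3 were higher and 5 lower without 6M library 3, and 2 higher without 6M library 1 or 18M library 2. Sycp1, a protein of the synaptonemal complex, was at 167 to 182 CPM at 6M and 165 to 180 CPM at 18M.

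Of 19 tested genes of spermatogonia, none was higher and 2 were lower at an unadjusted p of 0.05 or less. The shares of all genes were 7.13% and 7.61%, and the median of the list was -0.06. Without 18M library 1, 4 of the 19 were lower at that p, and without 6M library 3, 1 was higher. Without 6M library 2, 1 was lower at that p and it was called by edgeR. Kit, the receptor of differentiating spermatogonia, was at 24.8, 25.5 and 22.4 CPM at 6M and 21.8, 18.2 and 14.1 CPM at 18M. Gfra1, a receptor subunit of spermatogonial stem cells, ranged from 9.71 to 16.9 CPM at 6M and from 8.79 to 16.2 CPM at 18M, and Zbtb16, a factor of undifferentiated spermatogonia, had a log2 fold change of -0.31 (SE 0.18). Sohlh2 had 47.8, 11.2 and 41.6 CPM at 6M and 11.5 to 12.5 CPM at 18M, so that 1 library at 6M stood at the level of 18M.

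Genes of unlike transcript length differed between the ages in a regular way, and spermatid transcripts are short. Among 3011 genes with transcripts of 55 to 1281 nt, the median log2 fold change was 0.11, and 610 genes were higher and 69 lower at an unadjusted p of 0.05 or less. Among 3010 genes of 5246 nt or more, the median was -0.09, and 48 were higher and 504 lower. The median transcript length was 1326 nt for the elongating spermatid genes and 2746 nt for all tested genes. When the trend with length within each library was entered into the fit, a step chosen after seeing the data, 5 of the 23 elongating and 1 of the 22 round spermatid genes were higher at an unadjusted p of 0.05 or less, with medians of 0.06 and 0.04. Of all 18059 genes, 956 were higher at that p in this fit. The same step left the 6 called genes called, and the medians of the Leydig cell lists at -0.29 and -0.38.

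The length trend varied between libraries of an age. The shortest class minus the longest, as the difference of their median deviations from each gene's mean log2(CPM + 1) over 12 libraries, was -0.11, -0.08 and -0.03 at 6M and 0.04, 0.09 and 0.16 at 18M. The ages did not overlap in it. At 3M it was 0.00, -0.14 and -0.04 and at 12M -0.02, -0.09 and 0.20, so that 1 library at 12M was above all 3 at 18M. The part of this trend in the spermatid differences beyond the fit with length was not tested.

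**Figure D4:**
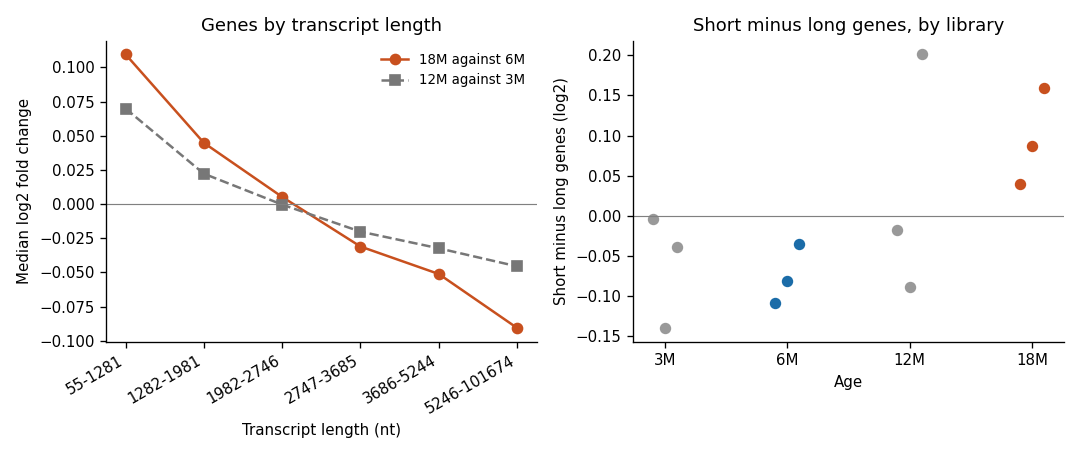
Left, median log2 fold change (vertical axis) of genes in 6 classes of transcript length in nt (horizontal axis), between 6M and 18M (orange) and between 3M and 12M (grey). Right, the deviation of the shortest class minus that of the longest (log2) in each library by age. The medians descend from 0.11 to -0.09 between 6M and 18M and from 0.07 to -0.05 between 3M and 12M, and the 3 libraries at 18M lie above the 3 at 6M.

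Somatic cells other than Leydig cells gave few differences, and neither edgeR nor DESeq2 called a member of the Sertoli, peritubular myoid, endothelial or stromal lists. Over all genes, 7.13% were higher and 7.61% lower at an unadjusted p of 0.05 or less. None of 19 tested Sertoli cell genes reached an unadjusted p of 0.05 (median -0.09), among them Sox9, the factor that sets Sertoli cell fate, at 13.7 to 17.2 CPM at 6M and 11.8 to 14.1 CPM at 18M, and Amhr2, the receptor of anti-Müllerian hormone, at 139 to 177 CPM and 149.9 to 169 CPM. Of 10 peritubular myoid genes 1 was lower, Smtn, a smooth muscle protein, with a log2 fold change of -0.24, and Acta2 and Myh11, contractile proteins of smooth muscle, had -0.05 and 0.07. None of 11 endothelial genes reached that p, and 4 lay above 0 and 7 below, at a median of -0.11. They ranged from -0.35 for Pecam1, a junction protein of the vessel wall, to 0.49 for Kdr, a receptor of vascular endothelial growth factor. Of 10 genes of interstitial stroma, Igf2 was higher at that p (0.49), and Dcn (-0.34) and Pdgfra, the receptor of platelet-derived growth factor on mesenchymal cells (-0.58), were lower. These counts rested on single libraries. None of the 10 was lower without 6M library 2, 18M library 2 or 18M library 3. None was higher without 6M library 1 or 2 or 18M library 1 or 2. Smtn was not at that p without 6M library 2, 18M library 2 or 18M library 3. With 1 library left out, the Sertoli cell median ranged from -0.17 (without 6M library 1) to 0.04 (without 6M library 3).

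Of 30 genes of collagens and other matrix proteins, 12 were lower and 2 higher at an unadjusted p of 0.05 or less, against 7.61% and 7.13% of all genes, and none was called by edgeR, at a median of -0.30. DESeq2 called Col1a1, Col1a2, Col3a1 and Timp2 lower and Col5a1 higher. Col1a2 and Col1a1, the chains of type I collagen, had log2 fold changes of -0.73 (SE 0.15, adjusted p = 0.23) and -0.62 (SE 0.16, adjusted p = 0.248), and Col3a1 had -0.71. Col1a2 was at 12.5, 14.3 and 12.0 CPM at 6M and 9.61, 6.83 and 7.01 CPM at 18M, with no overlap, and at a mean of 17.2 CPM at 3M and 8.92 CPM at 12M. Timp1, an inhibitor of matrix metalloproteinases, was at 0.602, 1.12 and 2.53 CPM at 6M and 0.484, 0.623 and 0.386 CPM at 18M (log2 fold change -1.53, SE 0.52), so the ages overlapped and 6M library 3 stood apart. Of those proteinases, Mmp2 had -1.32 (SE 0.43) and Mmp9 1.19 (SE 0.54), both near or below 1 CPM and overlapping between the ages. Of the 5 members above 0, Col5a1 (0.40) and Col15a1 (0.24) were at an unadjusted p of 0.05 or less. Between 3M and 12M, 14 of the 30 were lower at that p and none higher, with a median of -0.34. Without 18M library 3, 6 of the 30 were lower between 6M and 18M.

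Genes of immune cells did not move as 1 group, and neither edgeR nor DESeq2 called a member of the macrophage, lymphocyte, interferon or antigen presentation lists. Of 18 macrophage genes, 5 were lower and 1 higher at an unadjusted p of 0.05 or less (all genes 7.61% and 7.13%). Their median was -0.28. Csf1r, the receptor of colony-stimulating factor 1, was at 7.51, 8.41 and 10.1 CPM at 6M and 7.84, 4.58 and 4.80 CPM at 18M, and Adgre1, the F4/80 antigen, at 3.51 to 4.59 CPM and 3.03 to 3.46 CPM. Aif1 was the member that was higher, at 299.8 to 325 CPM and 326 to 369 CPM. None was higher without 6M library 3, 18M library 2 or 18M library 3. The level of Aif1 was far above that of Mrc1, the next highest of the list, at 25.8 to 35.1 CPM. Whether its RNA came from macrophages was not tested. Without 18M library 2, 1 of the 18 was lower at that p, and 2 were without 18M library 3, 6M library 2 or 6M library 3. The macrophage median ranged from -0.39 (without 6M library 1) to -0.15 (without 6M library 3).

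All 12 tested lymphocyte genes had log2 fold changes above 0, from 0.03 to 0.58, but none reached an unadjusted p of 0.05. Their summed level was 12.4 to 14.4 CPM at 6M and 14.0 to 17.7 CPM at 18M. Cd3e, a chain of the T cell receptor complex, was at 0.239 to 0.311 CPM at 6M and 0.279 to 0.542 CPM at 18M, and Ptprc, the CD45 antigen of leukocytes, at 0.955 to 1.41 CPM and 0.964 to 1.79 CPM. Both ranges overlapped, and at these levels small differences could not be detected.

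Of 23 tested genes of the interferon response, 4 were lower and none higher at an unadjusted p of 0.05 or less. The shares of all genes were 7.61% and 7.13%, and the median of the list was -0.34. Stat2, a transducer of interferon signals, had a log2 fold change of -0.38, and Ifit1 and Ifit2, which interferon induces, had -1.02 (SE 0.46) and -0.67 (SE 0.34), both below 1 CPM in each library. Of 17 genes of antigen presentation, B2m, the light chain of class I molecules, was the 1 member lower at that p (-0.39), and the class I heavy chains H2-K1 and H2-D1 had -0.07 and -0.17. Without 18M library 2, none of the 23 interferon genes was lower at that p, and 2 were without 18M library 3. Of the antigen presentation genes, 4 were lower without 18M library 1 and 2 without 6M library 1. None was lower without 6M library 3, 18M library 2 or 18M library 3. Their median ranged from -0.36 (without 18M library 1) to -0.03 (without 6M library 3). That of the interferon genes ranged from -0.41 (without 6M library 1) to -0.24 (without 6M library 3). Between 3M and 12M the antigen presentation genes lay the other way, with a median of 0.13. There 4 of them were higher and 1 lower at an unadjusted p of 0.05 or less, against 4.2% and 3.97% of all genes. For the interferon genes, 1 was higher and 3 lower there, with a median of -0.10.

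Genes of cell senescence showed no common direction, with 7 of 14 tested members above 0 and 7 below, and a median of 0.01. Cdkn2a, which codes for the cell cycle inhibitors p16 and ARF, was at 3.57, 3.64 and 3.06 CPM at 6M and 3.56, 2.77 and 3.91 CPM at 18M. The ranges overlapped and its log2 fold change was 0.00 (SE 0.16, adjusted p = 0.994). Cdkn2b, which codes for p15, had 5.40 to 7.32 CPM and 5.91 to 6.84 CPM, and the chemokine Cxcl12, at 10.4 to 13.6 CPM and 5.26 to 8.68 CPM, was the member lower at an unadjusted p of 0.05 or less.

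**Figure D5:**
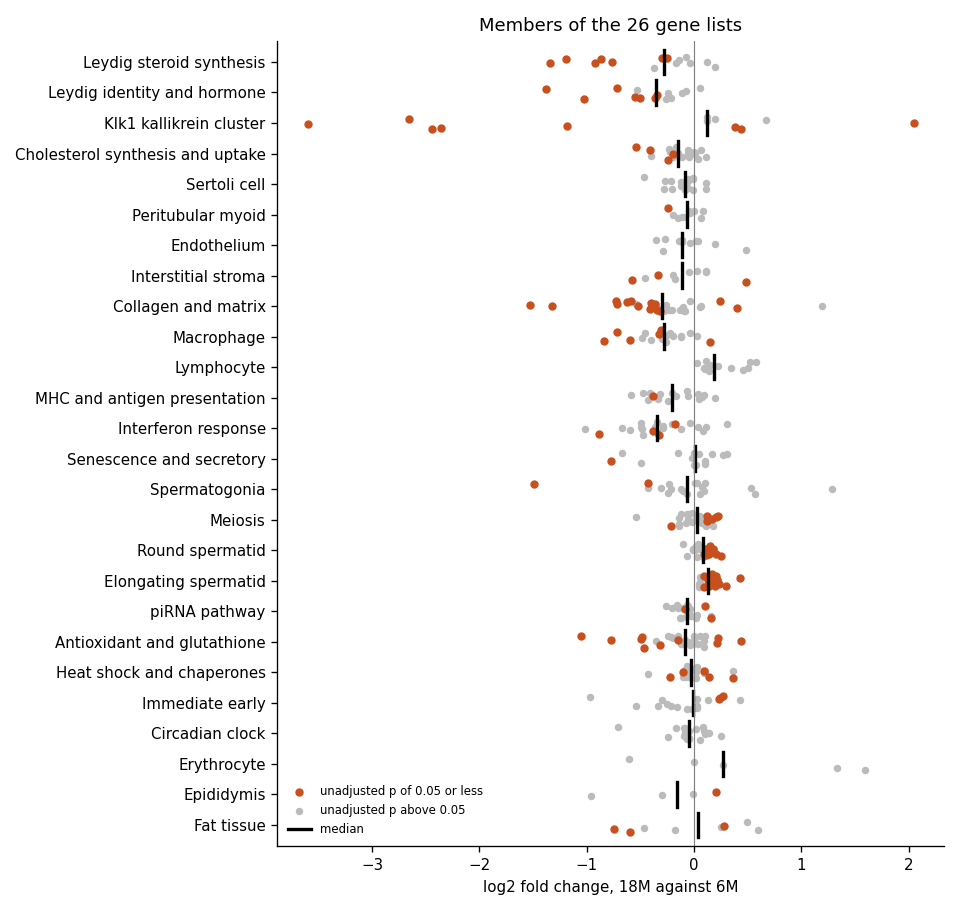
Log2 fold change between 6M and 18M (horizontal axis) of each tested member of the 26 gene lists (vertical axis). Orange points have an unadjusted p of 0.05 or less, grey points a higher one, and the black bar is the median of the list. The lists of Leydig cells, matrix, macrophages and the interferon response have medians from -0.28 to -0.36, and those of round and elongating spermatids lie at 0.09 and 0.13.

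The libraries at 3M and 12M allowed a look at the called genes in samples that had no part in calling them. Between 3M and 12M, 10 of 18105 genes were called (0.0552%). Of the 6 genes called between 6M and 18M, 5 had the same direction there, 3 of these at an unadjusted p of 0.05 or less (8.17% of all genes), and 1 was called. Klk1b24 was that gene, with a log2 fold change of -2.20. Cyp17a1 had -0.90 at an unadjusted p of 1.9e-04 from the same edgeR fit, and Gm13483 had 0.68 at 0.031.

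Snhg3, Inpp5j and Als2cr11 had 0.35, -0.11 and 0.11 between 3M and 12M, each above an unadjusted p of 0.05. Of the 2663 genes at that p between 6M and 18M, 2651 were tested between 3M and 12M, and 2236 (84.3%) had the same direction there, while 11923 of all 17889 genes tested in both did (66.6%). Of the 2651, 415 had the same direction and 21 the opposite at an unadjusted p of 0.05 or less there, against 1199 and 273 of the 17889. Genes of unlike transcript length stood in the same order in both comparisons, and the part of that order in these shares was not tested.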

How the data were processed

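Ribosomal RNA was removed from total testis RNA, and paired-end libraries were made with a kit that does not keep the strand, so antisense and overlapping genes are uncertain. For alignment the authors used HISAT2 on the mm10 build, and StringTie 1.3.3b for assembly. The deposited estimated counts are coverage times transcript length over read length, which the authors rounded up to whole numbers, and the deposited FPKM values are scaled by length and mapped fragments. Counts were summed per gene identifier over classes =, c, j and o. Of 24336 identifiers, 24280 matched the RefSeq table and 220 carried several symbols, resolved by the RefSeq symbol.

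The 3 libraries at 6M were compared with the 3 at 18M with edgeR 4.0.16 in R 4.3.3 (TMM normalization, filterByExpr, quasi-likelihood F-test, Benjamini-Hochberg adjustment). Totals of 50924104 to 71803379 reads per library set the counting precision, and the code was tested on simulated data. The comparison, the gene lists and the rules were chosen with earlier results of these data known. The table of assembled transcripts of each library served to check the counts. Named are, in each direction, the 12 called genes of largest fold change with a mean of 1 CPM or more and no overlap, filled up with the uncalled genes of lowest p, up to 4 called members of each list or else its first 2 tested members, and the 3 uncalled genes with the most reads. List members of an unadjusted p of 0.05 or less named beside these, and further genes of the Leydig cell, kallikrein and matrix lists, were chosen after their values were seen. Some genes that this rule names are not reported here. Alternatives were other normalizations and filters, robust dispersion, DESeq2 1.42.0, limma 3.58.1 on log2(FPKM + 0.1) and log2(FPKM + 1), all 12 libraries, the replicate number as a block, other class codes, a fold threshold, and each library left out.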

Additional observations from a re-analysis of the deposited data

How the results depend on the processing

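The count of 6 called genes was the same with the size factors of DESeq2, library size alone, no filter on low counts, 1 CPM in 3 libraries, log2(FPKM + 1) and the length term, and it was 5 with log2(FPKM + 0.1) and with a log2 fold change of 1 added. With all 12 libraries it was 7, and 4 of the 6 genes were among them. DESeq2 called 383 of 22031 genes (1.74%), robust dispersion 14, fully matching rows alone 11 with 4 of the 6 among them, all class codes 15 with 5 of the 6, the assembled loci 16 with 3 of the 6, and an unadjusted p with a log2 fold change of 1 in DESeq2 194. With 1 library left out the count lay between 5 (without 18M library 3) and 18 (without 18M library 1), and it was 16, 14 and 17 without 6M library 1, 2 and 3 and 11 without 18M library 2. The count of the 6 genes called between 3M and 12M was 1, and it was 2 with DESeq2 and 1 to 2 with 1 library left out (2 without 3M library 3). Als2cr11 was not called with log2(FPKM + 0.1) (adjusted p = 0.0649) or log2(FPKM + 1) (0.0799). The causes were not tested.

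With the replicate number as a block, 1 gene was called, Snhg3 (adjusted p = 0.017), and the other 5 had adjusted p-values of 0.0784 to 0.123. Libraries of the same number did not deviate together from their group means (correlations of -0.04, -0.05 and -0.04). This gave no sign of a pairing by number. It cannot exclude one, because deviations from a mean of 3 libraries offset each other. The loci, the length term and the lists under each setting were chosen after seeing the data.

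Single genes changed sign as follows. With fully matching rows alone, Gm13483 had -5.12, Rpl13a -0.0939, Als2cr11 0.072, Acta2 0.0197, Cdkn2a 0.0005, Cdkn2b 0.0083, Gfra1 1.76, Acr -0.15, Sod2 -0.19 and Rnase10 0.0019. With all class codes, Inpp5j had 0.10. Over the assembled loci, Inpp5j had 0.10, Clock 0.10 and Hba-a2 0.35. With all 12 libraries, Hmgcs1 had 0.0004 and Cdkn2b 0.0017. With the length term, Hmgcs1 had 0.053, Amhr2 0.0462, Sycp1 0.0016, Sycp2 0.0674, Sod1 -0.0728, Clock 0.0424 and Akap12 0.0296. Without the filter, Cdkn2b had 0.0015. With the replicate block, Cdkn2b had 0.0067, Hba-a1 -2.61 and Hba-a2 0.0918. With log2(FPKM + 0.1), Sod2 had -0.0119 and Hba-a1 -2.37. With log2(FPKM + 1), Sod2 had -0.0112 and Hba-a1 -0.62.

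With 1 library left out, Hmgcs1 ranged from -0.0353 to 0.0346, Amhr2 from -0.0911 to 0.0778, Acta2 from -0.16 to 0.0913, Myh11 from -0.0065 to 0.20, Tcf21 from -0.0356 to 0.21, Ptprc from -0.16 to 0.28, Cdkn2a from -0.11 to 0.12, Cdkn2b from -0.0958 to 0.13, Sycp1 from -0.0602 to 0.0147, Sycp2 from -0.0556 to 0.0123, Sod2 from -0.0049 to 0.0839, Hsf1 from -0.0094 to 0.047, Hsf2 from -0.0538 to 0.026, Clock from -0.35 to 0.27, Hba-a1 from -10.79 to 2.06, Hba-a2 from -1.32 to 0.72 and Rnase10 from -0.0742 to 0.0626. Depth limits genes under about 1 CPM, and in some of them 1 library may move the value. The widest range above was that of Hba-a1, with means of 4.38 CPM at 6M and 10.9 CPM at 18M.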

Other observations

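Of 29 tested antioxidant and glutathione genes, 7 were lower and 3 higher at 18M at an unadjusted p of 0.05 or less. The shares of all genes were 7.61% and 7.13%. The median log2 fold change of the list was -0.08 and none was called by edgeR, while DESeq2 called Ggt5, Gpx1, Txn1 and Cat lower and Gpx4 and Prdx4 higher. Without 18M library 2, 4 of the 29 were lower at that p. Ggt5, a gamma-glutamyltransferase, was at 1.20, 1.46 and 1.58 CPM at 6M and 0.708, 0.723 and 0.624 CPM at 18M, a log2 fold change of -1.05 (SE 0.19, adjusted p = 0.227). Its ages did not overlap, and its mean was 1.72 CPM at 3M and 1.06 CPM at 12M. Cat, which breaks down hydrogen peroxide, had -0.49 and Gpx1, a glutathione peroxidase, -0.48, whereas Gpx4, the peroxidase that is abundant in spermatids, had 0.22. The superoxide dismutases Sod1 and Sod2 had 0.06 and 0.04.

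Of 20 genes of the piRNA pathway, which silences transposons in germ cells, 2 were higher and 1 lower at that p (all genes 7.13% and 7.61%). Piwil1 and Piwil2, 2 of its Argonaute proteins, had log2 fold changes of -0.07 and -0.13. The count of lower piRNA genes was 5 without 6M library 3 and with library size alone, 3 without 18M library 1 and 0 without any other library. Of 22 heat shock and chaperone genes, 3 were higher and 2 lower, beside the same shares of all genes. The lower ones were 4 without 6M library 3 and 1 without 6M library 2, 18M library 2 or 18M library 3. Hspb9, a small heat shock protein of the testis, was at 321, 333 and 283 CPM at 6M and 441, 374 and 394 CPM at 18M, with no overlap, and the factors Hsf1 and Hsf2 had 0.02 and -0.03. Of 18 immediate early genes, which respond fast to stimuli and to handling of tissue, 3 were higher and none lower (all genes 7.13% and 7.61%). Fos was below 1 CPM in each library, and Fosb, at 3.29 to 3.38 CPM and 3.82 to 4.22 CPM, was higher by 0.24.

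None of 19 circadian clock genes reached an unadjusted p of 0.05, and Arntl and Clock had 0.13 and -0.05. Clock was at 41.5, 20.6 and 54.2 CPM at 6M and at 47.3, 19.2 and 46.0 CPM at 18M, so its spread within an age was larger than the difference. The alpha globins Hba-a1 and Hba-a2, near-identical copies, varied from 0 to 32.8 CPM and from 0.178 to 18.3 CPM, and a value for either alone is uncertain. Of the 8 tested markers of fat tissue, Adipoq was higher at that p, with 0.28 (SE 0.10), and Plin1 (-0.60, SE 0.25) and Lpl (-0.74, SE 0.30) were lower, while the leptin gene Lep had 0.49 (SE 0.53). Neither Plin1 nor Lpl was at that p without 6M library 1, 2 or 3 or 18M library 3, and Adipoq was not without 6M library 3 or 18M library 2. Of the 4 tested epididymis genes, Cst8 was higher at that p, with 0.21 (SE 0.06), while Ros1, Crisp1 and Rnase10 had -0.30 (SE 0.18), -0.96 (SE 0.62) and -0.01.

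Of the 16 assembled loci called, 5 held a gene (Cyp17a1, Gm13483, Klk1b24 with Klk1b3, Olfr444 and Svopl) and 11 held none. These 11 lie outside the genes tested.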
